A study of Mus musculus with 8 samples.

Results

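Chemokines and their receptors were followed in the gallbladder of leptin-deficient obese mice after leptin or saline. The members are all probe sets whose single annotated mouse symbol is a Ccl, Cxcl, Ccr or Cxcr gene with a number, or Cx3cl1, Cx3cr1, Xcl1, Xcr1, Ackr1 to Ackr4 or Ccrl2. The rule matches names alone, but the members were chosen with earlier results of these data known. It found 87 of 45101 probe sets, which stand for 55 of 18194 genes named on the array. All mice were female and of the strain B6.V-lepob, whose ob mutation of the leptin gene leaves them without functional leptin. The treated group received recombinant mouse leptin by daily intraperitoneal injection, at 5 µg per g body weight for 4 weeks, and the controls received saline on the same schedule. Mice arrived at 7 weeks of age on standard chow, had 1 week of acclimation, and gave their gallbladders at 12 weeks after an overnight fast. Each treatment had 12 mice, pooled in threes, so that 4 leptin pools (numbered 5 to 8) and 4 saline pools (1 to 4) were each measured on 1 Affymetrix 430 2.0 array. There was no lean or untreated group.

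Chemokines are small secreted proteins that bind to matrix sugars and set up gradients along which white blood cells move. They are sorted by the spacing of their first cysteines into CC, CXC, CX3C and XC ligands, and they signal through G protein-coupled receptors named after the ligand class. Atypical receptors bind the same ligands without G protein signalling and remove or transport them. In the bile ducts and gallbladder, as in other mucosal organs, epithelial cells, stromal cells and resident macrophages all secrete chemokines.

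The values are MAS 5.0 signals, intensities on a linear scale as the authors deposited them, with a trimmed mean of 250 on each array. A signal was taken as background when it lay under 46.0, the 95th percentile of 27 control probe sets for bacterial sequences. Several properties of the arrays went with treatment. The median signal ran from 94 to 107 in leptin pools and from 77.8 to 87.3 in saline pools. For actin, the signal at the 3' end divided by that at the 5' end, a measure of RNA integrity, was 1.89 ± 0.207 (SD, n = 4) with leptin and 1.6 ± 0.0882 (SD, n = 4) with saline. The same ratio for Gapdh was 0.818 ± 0.0248 and 0.813 ± 0.0409. Leptin 7 stood apart on the second principal component, at -49.1 against -12.6 to 23.7 for the other 7 pools. White blood cell markers also went with treatment: 8 of 9 tested macrophage and monocyte markers, 3 of 5 neutrophil markers, 3 of 4 B and plasma cell markers and 3 of 5 mast cell markers were called higher with leptin. Over all tested genes 4.29% were called higher and 3.98% lower. Without the brightness filter, 8 macrophage and monocyte, 3 neutrophil, 5 B and plasma cell and 0 mast cell markers were called higher. Summed macrophage marker signal was 5642 to 6755 in saline pools and 10607 to 13407 in leptin pools, and summed neutrophil marker signal 475 to 675 and 2244 to 4062. Of 2 tested dendritic cell markers 1 was called higher, and of 2 tested T and NK cell markers and of 9 fibroblast and endothelial markers limma called 0, with 2 and 3 at an unadjusted p below 0.05; no eosinophil marker was bright enough to be tested. Without the filter the eosinophil surface gene Siglecf was called: it lay under background in all saline pools (1.4 to 21.5) and above it in all leptin pools (100.1 to 164), at least 2.85-fold higher (adjusted p = 0.0020). The eosinophil granule genes Epx and Prg2 were under background on all 8 arrays. The neutrophil granule gene Camp lay under background on all 8 arrays. Gallbladder epithelium was present in each pool: all 10 of its tested markers, Epcam and Krt19 among them, were above background throughout, and 1 was called higher and 4 lower. Summed epithelial marker signal was lower in every leptin pool (31742 to 35490) than in any saline pool (37416 to 46177), and the median log2 fold change of these markers was -0.30. Liver transcripts were bright in both groups, with hepatocyte marker sums of 65958 to 103585 with saline and 80566 to 92601 with leptin. In pooled tissue RNA, more cells of a type and more RNA per cell cannot be told apart, and the part of these array properties and cell markers in the chemokine results was not tested.

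Leptin was followed by higher levels of a small set of chemokine transcripts, led by Cxcl5, Ccl8 and Cxcl13. In the fit over all 45037 probe sets that are not controls, with no brightness filter, 8 of the 55 member genes were called higher with leptin and 0 lower (limma, Benjamini-Hochberg adjusted p below 0.05). Over all 18193 genes outside the control probe sets that fit called 3.94%, of which 2.11% were higher and 1.82% lower. Every leptin pool lay above every saline pool in 14 of the 55 and below in 2, against 7.39% and 5.79% of all genes. The principal fit was restricted to the 22519 brighter probe sets, 6.93% of which were called. There 29 member genes were tested and again 8 were called higher and 0 lower, against 4.29% and 3.98% of 11719 tested genes. Groups were separate with leptin higher in 9 of the 29 and lower in 1, against 8.45% and 8.58% of tested genes. At an unadjusted p below 0.05 there were 13 higher and 1 lower of the 29, against 12.7% and 12.8% of all tested genes. The 8 genes were the ligands Cxcl5, Ccl8, Cxcl13, Ccl6, Cxcl12 and Ccl28 and the receptors Cx3cr1 and Cxcr6. Of these, Cxcl5, Cx3cr1 and Cxcr6 passed the brightness filter only through their leptin pools, as did Ccr1, Ccr6, Cxcl10, Ccl25 and Ccr1l1 among those not called. In the unfiltered fit Cxcr4 was called and Ccl28 was not. Median log2 fold changes, leptin minus saline, were 0.36 for the 29 tested members and 0.020 for all tested genes, and without the filter 0.42 for the 55 members and 0.074 for all genes.

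**Figure D1:**
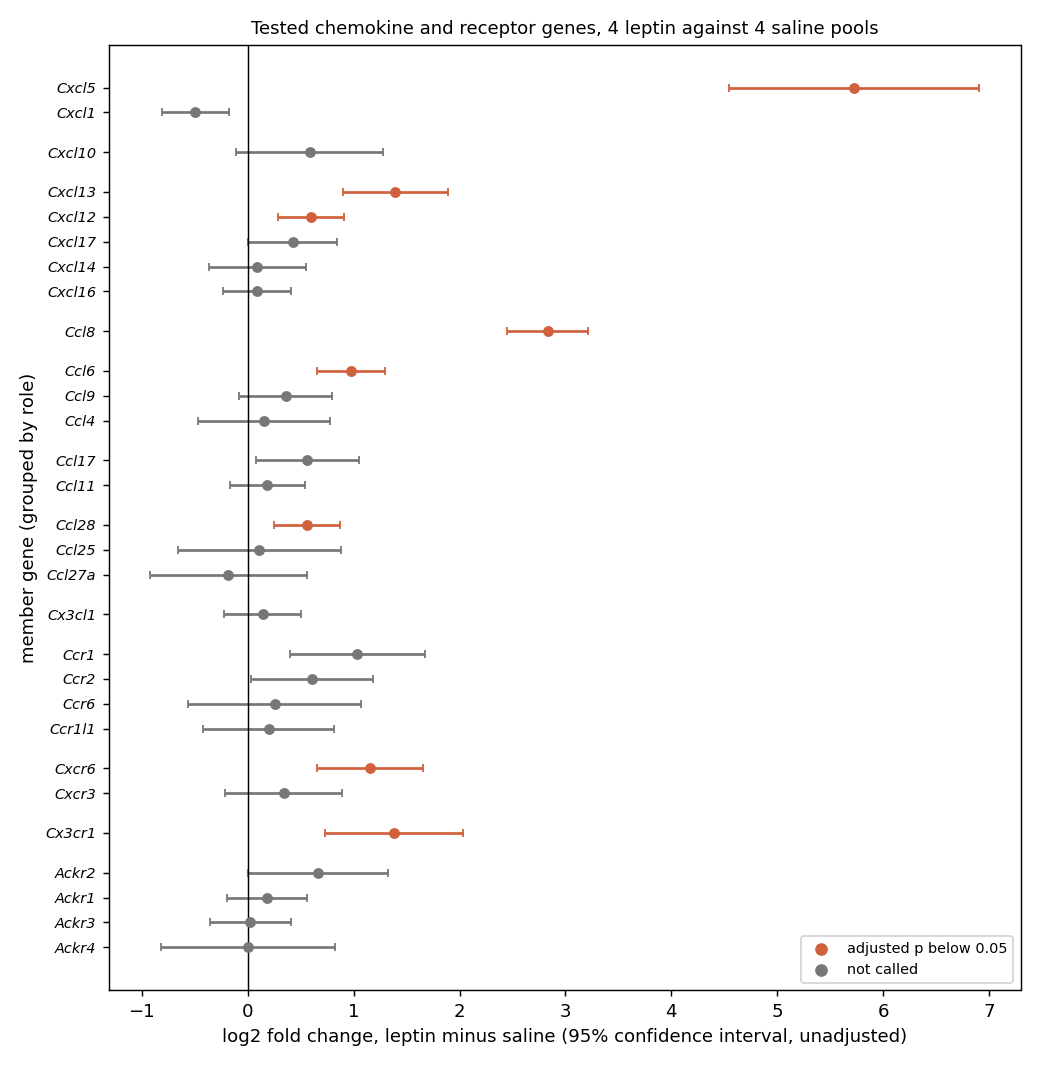
Log2 fold change, leptin minus saline, of the 29 tested member genes grouped by role, each from its brightest probe set, with unadjusted 95% confidence intervals (n = 4 pools in each treatment). Orange points are the 8 genes with adjusted p below 0.05, from Cxcl5 at 5.73 to Ccl28 at 0.56; Cxcl1 at -0.49 lies farthest below 0.

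CXC ligands that recruit neutrophils did not move together. Cxcl5, a neutrophil attractant made by epithelial cells and macrophages among others, had signals of 18.2, 1.1, 28.3 and 87.8 in saline pools 1 to 4 and of 1894, 2109, 783 and 2113 in leptin pools 5 to 8. Thus 3 saline pools lay under background, the leptin pools were far above it, and leptin 7 was the lowest of its group. With the dim saline pools set at background, Cxcl5 was at least 29.6-fold higher with leptin. The fitted log2 fold change, which depends on saline signals under background, was 5.73 ± 0.55 (SE; limma adjusted p = 4.8e-05), and 6.07 without leptin 7. Cxcl5 reached the brightness filter only through its leptin pools, and the unfiltered fit called it too (adjusted p = 1.2e-04).

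Cxcl1, another neutrophil attractant and a neighbour of Cxcl5 in the genome, lay the other way. Its signals were 403, 409, 385 and 441 with saline and 299, 248, 355 and 261 with leptin, so that every leptin pool was below every saline pool. The log2 fold change of -0.49 ± 0.15 was not called (adjusted p = 0.0593, and 0.0889 without the filter). It passed without leptin 7 (-0.59, adjusted p = 0.0283), with array weights (-0.54, adjusted p = 0.0236), with the stricter filter at the 75th brightness percentile (adjusted p = 0.0446) and with each array centred on its median (-0.74, adjusted p = 0.00565). That brightest probe set is of a kind that can bind several related transcripts. The probe set of Cxcl1 with no such mark gave -1.15 ± 0.38 (adjusted p = 0.0882), with saline 1 at 456 and the other saline pools at 120 to 202, and the remaining probe set gave -0.34 ± 0.18 (adjusted p = 0.284).

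The other genes of this ligand class were too dim to be tested. Cxcl2 had means of 54.7 ± 15.5 (SD, n = 4) with saline and 56.1 ± 21.4 with leptin, close to background in both groups. Cxcl3 lay under background on all 8 arrays (0.6 to 15.8 with saline, 17.4 to 41.3 with leptin), and Cxcl15 overlapped fully (23.4 to 80.5 and 10.1 to 150). Cxcr2, the receptor through which these ligands call neutrophils, was under background in every pool, at 12.4 to 30.6 with saline and 15 to 41.9 with leptin. A signal under background gives only an upper limit on the level. It stands beside 3 of 5 tested neutrophil markers called higher in the same pools. Among these were S100a8, a calcium-binding protein of neutrophils, at a log2 fold change of 3.07 ± 0.20 (adjusted p = 1.9e-06), and Csf3r, the receptor for their growth factor, at 1.78 ± 0.26 (adjusted p = 0.0014). The tested markers Ngp and Mmp8 were not called, at 0.00078 ± 0.22 and 0.48 ± 0.27 (adjusted p = 0.997 and 0.314).

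**Figure D2:**
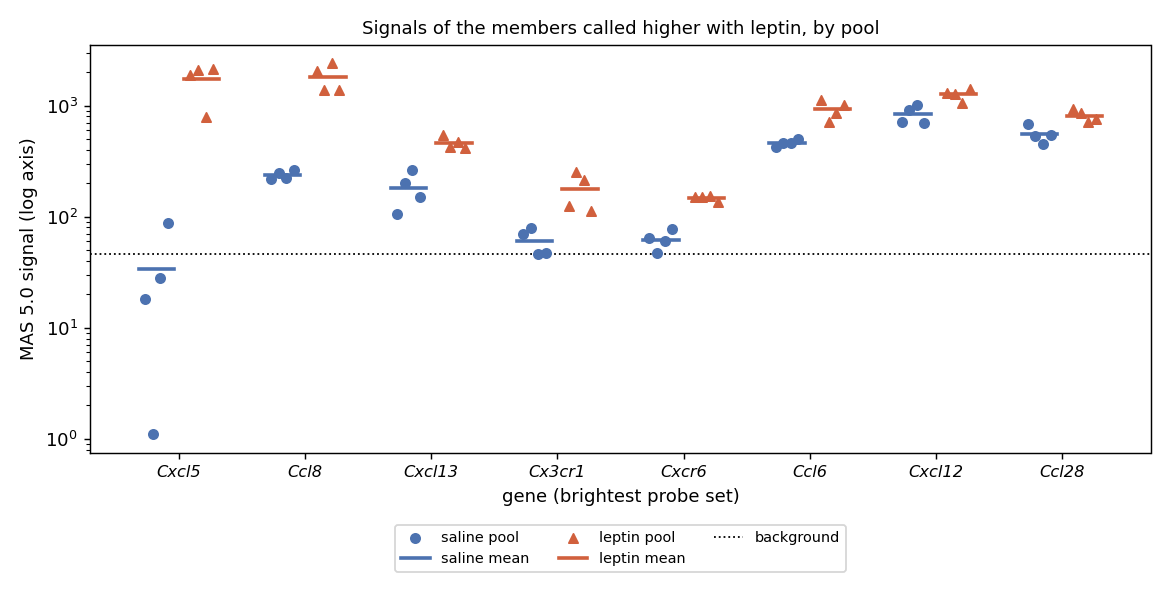
MAS 5.0 signal on a log axis in each saline pool (circles) and leptin pool (triangles) for the 8 member genes called higher with leptin, with group means as bars and background (46.0) dotted. In each of these genes the 4 leptin pools lie above the 4 saline pools; Cxcl5 has 3 saline pools under background.

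Among CC ligands that attract monocytes, Ccl8 rose, and Ccl2, Ccl7 and Ccl12 were too dim to be tested. Ccl8, which in mice also acts on Ccr8 of type 2 lymphocytes, had signals of 220, 249, 223 and 262 with saline and 2029, 1376, 2407 and 1371 with leptin. The saline pools were tightly grouped and the leptin pools lay far above them. The log2 fold change of 2.83 ± 0.18 (adjusted p = 1.2e-06) was the 14th highest of 11719 genes, and its lowest value in any alternative setting was 2.58.

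Ccl2, the main attractant of inflammatory monocytes, had 78.9, 105, 190 and 137 with saline and 63.2, 47.5, 60.8 and 42.9 with leptin, so the groups did not overlap and leptin was lower. Ccl2 lay just under the brightness filter and had no test there; in the unfiltered fit it was at -1.09 ± 0.32 (adjusted p = 0.107). Ccl7, with similar targets, was at 30.3 to 175 with saline and 8.4 to 77.6 with leptin, and Ccl12 at 4.4 to 48.8 and 41.8 to 56.9; both overlapped. Ccr2, the receptor that lets monocytes leave bone marrow and answer Ccl2, was read by 4 probe sets that differed. The brightest had means of 87.3 ± 21.1 (SD, n = 4) and 138 ± 38.6 and was not called (0.61 ± 0.26, adjusted p = 0.187). A dimmer probe set had 53.4, 53.1, 79.6 and 59.5 with saline and 154, 242, 163 and 124 with leptin, without overlap, and was called (1.34 ± 0.26, adjusted p = 0.0084). The other tested one was at 0.97 ± 0.34 (adjusted p = 0.104), and the mean of the 3 tested probe sets was called (0.97, adjusted p = 0.0327), so the call depends on the probe set read. The dimmest had 9.1, 13, 4.7 and 36.4 with saline, all under background, and 65.6, 50.2, 136 and 80.7 with leptin, all above it. Set against background it was at least 1.68-fold higher, and it passed in the unfiltered fit (adjusted p = 0.0432), as did the called probe set (adjusted p = 0.023).

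Macrophage-derived CC ligands gave a single call. Ccl6, made by resident macrophages and other myeloid cells of rodents, had 428, 459, 463 and 499 with saline and 1126, 711, 860 and 1016 with leptin. Each leptin pool was above each saline pool, and the log2 fold change was 0.97 ± 0.15 (adjusted p = 0.0018). The second Ccl6 probe set was called too, at 0.83 ± 0.18 (adjusted p = 0.0184). Its close relative Ccl9, next to it in the genome, overlapped (613 to 1143 with saline, 877 to 1466 with leptin) and was at 0.36 ± 0.20 (adjusted p = 0.309). Ccl4, an attractant of macrophages and T cells, was at 0.16 ± 0.29 (adjusted p = 0.786), and Ccl3 was under background on all arrays.

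Ccl5, made by T cells and NK cells among others, and Ccr1, a receptor for Ccl5, Ccl6 and Ccl9, were not called. Ccl5 signals were 14.9, 91.4, 6.1 and 9.8 with saline and 83.9, 119, 72.6 and 228 with leptin; saline 2 alone reached the leptin range. Against background Ccl5 was at least 2.07-fold higher, and the unfiltered fit did not call it (adjusted p = 0.082). Ccr1 had 37.8, 57.8, 87.5 and 88.5 with saline and 171, 165, 137 and 102 with leptin, without overlap. Ccr1 reached the brightness filter only through its leptin pools. At 1.03 ± 0.29 it was not called (adjusted p = 0.0527, and 0.113 without the filter). It passed with array weights (adjusted p = 0.0385) and with the larger pseudocount (0.83, adjusted p = 0.0474). It also passed in the fit on the mean of a gene's tested probe sets (adjusted p = 0.0489), which for Ccr1 held the same probe set alone. The dimmer Ccr1 probe set had overlapping groups (9.8 to 36.1 with saline, 14.9 to 50.8 with leptin). In the unfiltered fit it was at 0.55 ± 0.44 and not called (adjusted p = 0.581).

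Cxcl13 and its receptor Cxcr5, which bring B cells into lymphoid follicles, were both at higher signals in all leptin pools. Cxcl13 had 106, 203, 263 and 149 with saline and 546, 426, 474 and 414 with leptin, a log2 fold change of 1.39 ± 0.23 (adjusted p = 0.0035). Its second probe set had 74.6, 96.8, 57.8 and 65 with saline and 317, 544, 260 and 613 with leptin, and gave a larger change of 2.37 ± 0.27 (adjusted p = 2.1e-04). The 2 probe sets thus shared the direction and differed in size, and the pool order within the leptin group was not the same. Cxcr5 had 36.7, 33.2, 30.4 and 41.6 with saline, all under background, and 76.9, 85.7, 89.1 and 72.2 with leptin, all above it. Set against background it was at least 1.75-fold higher, and it was too dim for the brightness filter; in the unfiltered fit it was not called (adjusted p = 0.124). In the same pools the B cell surface gene Ms4a1 was at 1.36 ± 0.16 (adjusted p = 3.0e-04).

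The homeostatic pair Cxcl12 and Cxcr4, which holds blood cell precursors and lymphocytes in tissue niches, was also higher. Cxcl12 had 717, 905, 1020 and 701 with saline and 1309, 1265, 1056 and 1412 with leptin. The groups were close at saline 3 and leptin 7 but did not overlap, and the log2 fold change was 0.60 ± 0.14 (adjusted p = 0.0272). A second bright Cxcl12 probe set had a like change with wider spread (0.67 ± 0.29, adjusted p = 0.181), with leptin 7 at 571 inside the saline range. The Cxcl12 call ended when saline 1 or saline 4, or any leptin pool but leptin 7, was left out (highest adjusted p = 0.0791). With each array centred on its median, Cxcl12 was at 0.35 and not called (adjusted p = 0.135). Cxcr4 had 48.7, 55.2, 4.5 and 57.6 with saline and 181, 214, 192 and 159 with leptin, a wide gap. It lay just under the brightness filter because of saline 3; the unfiltered fit called it (2.22 ± 0.48, adjusted p = 0.0282). Ackr3, the atypical receptor that removes Cxcl12, was at 0.023 ± 0.18 (adjusted p = 0.955), with a 95% interval of -0.36 to 0.41.

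**Figure D3:**
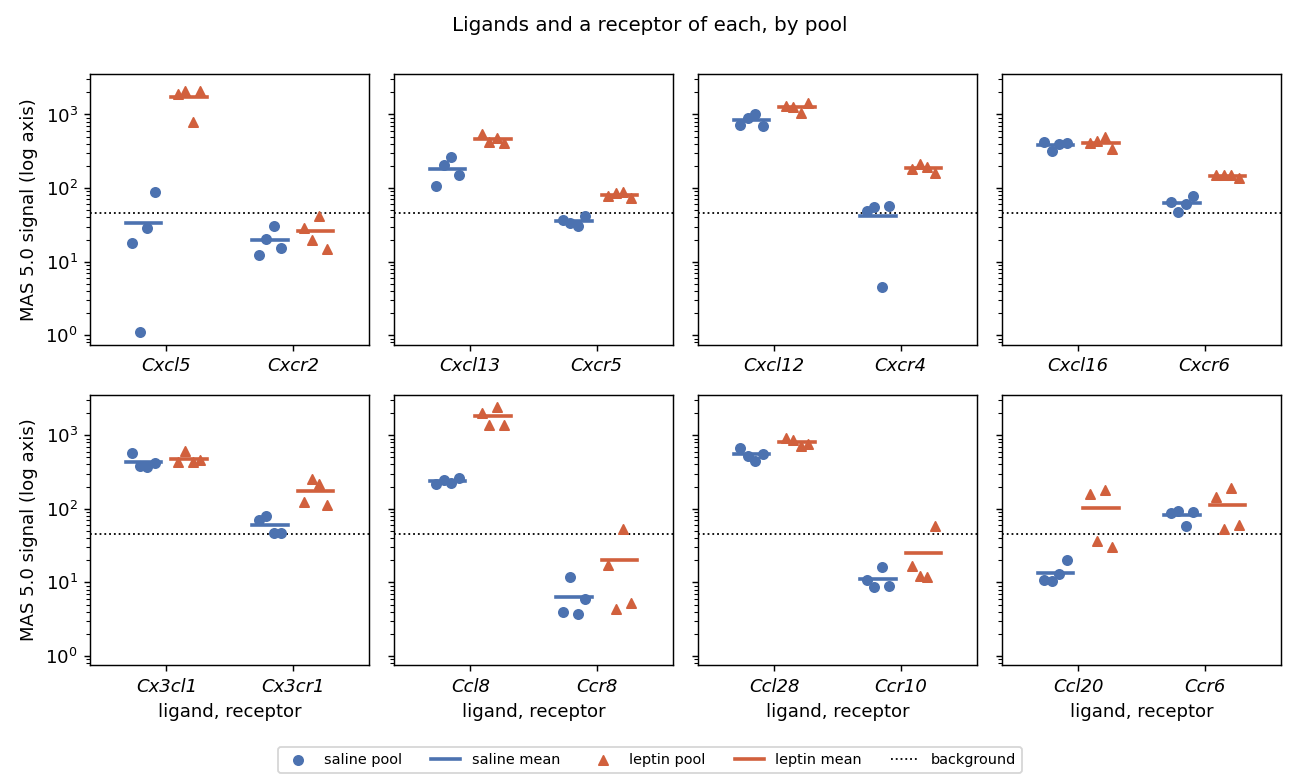
MAS 5.0 signal on a log axis in each saline pool (circles) and leptin pool (triangles) for 8 ligands, each beside a receptor, with group means as bars and background (46.0) dotted. Signals of different probe sets are not comparable in level. Cxcl13 and Cxcr5, and Cxcl12 and Cxcr4, were higher in all leptin pools; for Cxcl16 and Cxcr6, and Cx3cl1 and Cx3cr1, only the receptor groups are separate.

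Both other receptors that were called had ligands with overlapping groups. Cxcr6, carried by tissue-resident T cells, NKT cells and plasma cells, had 64.5, 47.3, 60.1 and 77.3 with saline and 150, 149, 153 and 136 with leptin, with very little spread among leptin pools. Its log2 fold change was 1.15 ± 0.23 (adjusted p = 0.0104), and the dimmer Cxcr6 probe set also had separate groups (1.9 to 13.3 and 29.1 to 62.3). Cxcr6 reached the brightness filter only through its leptin pools, and the unfiltered fit called it too (adjusted p = 0.0304). Cxcl16, its membrane-bound ligand on macrophages and epithelium, had means of 390 ± 46.0 (SD, n = 4) and 416 ± 61.9 and was at 0.089 ± 0.15 (adjusted p = 0.763; 95% interval -0.23 to 0.41); its other probe set was at -0.056 ± 0.16.

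Cx3cr1, a receptor of patrolling monocytes and resident macrophages, had 69.5, 79.5, 46.3 and 46.7 with saline and 124, 254, 216 and 113 with leptin. It was at 1.38 ± 0.30 (adjusted p = 0.017), and the call was narrowly lost without saline 4 (1.29, adjusted p = 0.0515) or leptin 6 (1.19, adjusted p = 0.0583). Cx3cr1 reached the brightness filter only through its leptin pools, and the unfiltered fit called it too (adjusted p = 0.0399). The dimmer Cx3cr1 probe set had overlapping groups (11.3 to 50.9 and 6.9 to 105). Its tethered ligand Cx3cl1 had means of 439 ± 97.5 (SD, n = 4) and 481 ± 81.9 and was at 0.14 ± 0.17 (adjusted p = 0.657), with the next brightest probe set at -0.12 ± 0.31 (adjusted p = 0.849). The dendritic cell receptor Xcr1 (39.5 to 57.7 with saline, 40.8 to 112 with leptin) and its lymphocyte-derived ligand Xcl1 (3.8 to 33.4 and 10.3 to 78) were too dim to be tested, and their groups overlapped.

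Interferon-induced CXC ligands, which draw Cxcr3-bearing T and NK cells, were dim, and their probe sets differed. Cxcl10 had 54.1, 73.4, 76.2 and 95.3 with saline and 78.9, 175, 72.7 and 165 with leptin, with leptin 6 and leptin 8 high and the other leptin pools within the saline range (0.58 ± 0.32, adjusted p = 0.298). Cxcl11 was under background in all saline pools (13 to 25.9) and had 31.7, 66.3, 83.7 and 144 with leptin, without overlap; against background it was at least 1.54-fold higher, and the unfiltered fit did not call it (adjusted p = 0.0901), while its dimmer probe set was at -0.10 ± 0.50 with overlapping groups. For Cxcl9 the probe sets disagreed. The brighter had overlapping groups (12.5 to 66.8 and 54.4 to 81.5; adjusted p = 0.435 unfiltered), while the dimmer had 11, 17.1, 6.1 and 12.3 with saline and 91.1, 48.5, 31.9 and 127 with leptin and passed in the unfiltered fit (at least 1.41-fold higher, adjusted p = 0.0421). Their receptor Cxcr3 was at 0.34 ± 0.26 (adjusted p = 0.457), with saline 4 at 60 and the other saline pools at 99.9 to 104.

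Apart from Ccl8 with its action on Ccr8, the ligands and receptors of eosinophils and type 2 lymphocytes gave no calls: Ccl11 and Ccl17 were tested and not called, and the others were too dim to be tested. Ccl11, the eosinophil attractant eotaxin, was well above background at 486 ± 81.0 (SD, n = 4) with saline and 556 ± 104 with leptin (0.19 ± 0.16, adjusted p = 0.529). Ccl17, a ligand of Ccr4, was higher in 3 of 4 leptin pools than in any saline pool (83.4 to 112 with saline; 148, 185, 164 and 108 with leptin), at 0.56 ± 0.22 (adjusted p = 0.151). Ccl22, Ccl24 and Ccl1 were dim and their groups overlapped, as did those of the receptors Ccr3 (3.3 to 27.9 and 8.7 to 63.6), Ccr4 (33.5 to 70.7 and 10.6 to 78) and Ccr8 (3.7 to 11.9 and 4.4 to 53.8). Ccr8, a receptor of the risen Ccl8, was above background in leptin 7 only.

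Among ligands that guide lymphocytes to mucosa, Ccl28 was the called one. Ccl28, which mucosal epithelia secrete to attract IgA plasma cells, had 680, 528, 451 and 547 with saline and 930, 853, 708 and 759 with leptin. Saline 1 and leptin 7 nearly touched, and the log2 fold change was 0.56 ± 0.15 (adjusted p = 0.0374). Both dimmer Ccl28 probe sets had overlapping groups and were not called, at 0.46 ± 0.23 and 0.35 ± 0.26 (adjusted p = 0.253 and 0.452). The call was also lost without the filter (adjusted p = 0.0521) and on leaving out any pool but saline 1 or leptin 7 (adjusted p up to 0.0966). With each array centred on its median, Ccl28 was at 0.31 and not called (adjusted p = 0.241). Its plasma cell receptor Ccr10 was under background in 7 of 8 pools (8.7 to 16.1 with saline; 16.9, 12.1, 11.8 and 58.3 with leptin). The plasma cell transcript Jchain, which encodes the joining chain of IgM and IgA, was higher in the same pools (5.77 ± 0.28, adjusted p = 8.2e-08). Sdc1, on the same marker list, was not called (-0.13 ± 0.094, adjusted p = 0.433).

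Ccl20, an epithelial attractant of Ccr6-bearing lymphocytes, divided the leptin pools. It had 10.9, 10.5, 13 and 20.1 with saline, all under background, and 160, 36.5, 180 and 30 with leptin, so leptin 5 and leptin 7 were clearly above background and the others were not. The unfiltered log2 fold change was 1.99 ± 0.55 (adjusted p = 0.082). Ccr6 was highest in the same leptin pools 5 and 7 (147 and 192, against 53.4 and 59.4 in leptin 6 and leptin 8; saline 58.2 to 94.3) and was not called (0.25 ± 0.38, adjusted p = 0.726). Ccl25, a gut-homing ligand, was at 0.11 ± 0.36 (adjusted p = 0.886), and its receptor Ccr9 was dim, with overlapping groups on all 5 of its probe sets. The dimmer Ccl25 probe set had overlapping groups and was at -0.73 ± 0.49 in the unfiltered fit (adjusted p = 0.503). Ccl27a was at -0.18 ± 0.34 (adjusted p = 0.791), with leptin 7 at 38.6 and the other leptin pools at 103 to 150. Ccr7, which leads T cells and dendritic cells to lymph nodes, was under background on every array (2.4 to 10.5). Ccr1l1, a receptor-like neighbour of Ccr1, was at 0.20 ± 0.29 (adjusted p = 0.718).

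**Figure D4:**
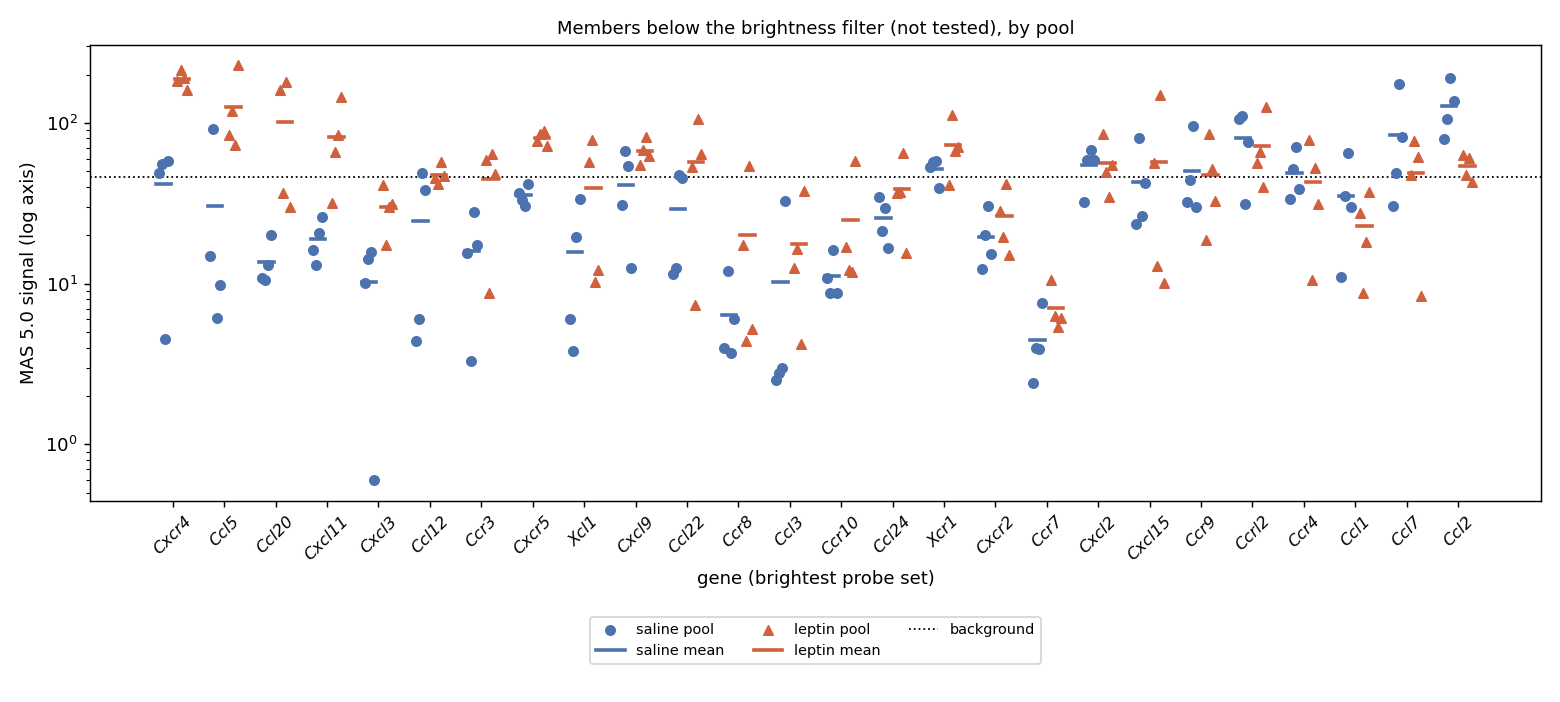
MAS 5.0 signal on a log axis in each saline pool (circles) and leptin pool (triangles) for the 26 member genes under the brightness filter, ordered by unfiltered log2 fold change, with group means as bars and background (46.0) dotted. Groups are separate for Cxcr4, Ccl20, Cxcl11, Cxcl3 and Cxcr5, with leptin higher, and for Ccl2, with leptin lower; 4 of the 26 lie under background in all pools.

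Cxcl14 and Cxcl17 were not called. Cxcl14, abundant in epithelia, was at 0.092 ± 0.21 (adjusted p = 0.834) on its brighter probe set; the dimmer one had separate groups in the opposite direction (27.9, 28.3, 61.3 and 64.9 with saline; 21, 4.1, 9.1 and 8.4 with leptin), with all leptin pools under background (unfiltered -1.51 ± 0.42, adjusted p = 0.0876). Cxcl17, a mucosal chemokine, had 172, 171, 171 and 277 with saline and 270, 208, 274 and 304 with leptin, and only saline 4 reached the leptin range (0.42 ± 0.19, adjusted p = 0.209).

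The atypical receptors were not called. Of 4 tested, 0 passed in limma, and 1 had an unadjusted p below 0.05, Ackr2, which clears inflammatory CC ligands (0.66 ± 0.30, adjusted p = 0.21). The next brightest Ackr2 probe set had overlapping groups (46.7 to 99.4 with saline, 41.3 to 120 with leptin) and was at 0.032 ± 0.37 in the unfiltered fit. Ackr1, a chemokine carrier of venules and red cells, was at 0.18 ± 0.17 (adjusted p = 0.565). Ackr4, which scavenges homing ligands, varied widely within groups, from 219 to 955 with saline and from 317 to 844 with leptin (0.0042 ± 0.38, adjusted p = 0.996; 95% interval -0.82 to 0.83). Its dimmest probe set had overlapping groups (4.1 to 30.9 with saline, 20 to 95 with leptin). In the unfiltered fit that probe set was at 1.63 ± 0.51 and not called (adjusted p = 0.123). Ccrl2, a related receptor without chemokine signalling, was below the filter, with means of 80.8 ± 36.3 (SD, n = 4) and 72 ± 37.4.

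Many members lie in runs of neighbouring genes, with no more than 2 other protein-coding genes between them. Over all tested genes 4.29% were called higher. In the gene order of assembly GRCm38.p6, Ccl2, Ccl7, Ccl11, Ccl12, Ccl8 and Ccl1 form 1 run. Of these 6, Ccl8 was called, 1 was tested and not called, and 4 were not tested. In the run Ccl5, Ccl9, Ccl6, Ccl3 and Ccl4, Ccl6 was called, 2 were not called and 2 were not tested. In that of Cxcl5, Cxcl3, Cxcl15, Cxcl1 and Cxcl2, Cxcl5 was called, 1 was not called and 3 were not tested. Of the 7 receptor genes in the run Ccr9, Cxcr6, Xcr1, Ccr1, Ccr1l1, Ccr3 and Ccr2, Cxcr6 was called, 3 were not called and 3 were not tested. Cx3cr1, which was called, lies in a run with Ccr8, which was not tested. The runs Cxcl9 and Cxcl10, and Ccl22, Cx3cl1 and Ccl17, held 0 called genes. Only genes annotated as protein-coding were placed in order, and the member Cxcl11 is in no run. Differences between neighbours were not tested, and in each of these runs some members were too dim for the principal fit.

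Promoter sequence was available for 42 of the 55 genes, as RefSeq windows of 300 bases on GRCm38.p6 that run from 250 before the annotated start to 50 after it. The bases before the start are shown for Ccl8 and Cxcl13, which rose and hold the letters TATAAA, and for Cxcl1, which did not rise and carries κB letters. Capitals mark motif matches, and a link between motif and call was not tested. All lie on the plus strand, Ccl8 at chr11:82114935-82115184, Cxcl13 at chr5:95956689-95956938 and Cxcl1 at chr5:90890995-90891244.
Ccl8: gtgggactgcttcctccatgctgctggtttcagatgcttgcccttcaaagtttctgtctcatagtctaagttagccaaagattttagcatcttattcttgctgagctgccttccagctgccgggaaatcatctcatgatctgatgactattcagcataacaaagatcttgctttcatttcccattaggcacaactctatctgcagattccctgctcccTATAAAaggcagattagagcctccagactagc
Cxcl13: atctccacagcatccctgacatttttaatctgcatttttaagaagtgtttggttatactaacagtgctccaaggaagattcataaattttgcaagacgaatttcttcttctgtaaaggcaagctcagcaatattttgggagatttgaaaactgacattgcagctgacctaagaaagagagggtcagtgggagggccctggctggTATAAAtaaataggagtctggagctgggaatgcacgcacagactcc
Cxcl1: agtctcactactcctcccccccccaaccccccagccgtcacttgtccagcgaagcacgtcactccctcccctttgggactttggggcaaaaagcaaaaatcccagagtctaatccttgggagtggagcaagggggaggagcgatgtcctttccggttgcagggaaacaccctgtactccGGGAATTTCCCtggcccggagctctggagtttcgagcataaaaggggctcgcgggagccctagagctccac

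On both strands of these windows, TATAAA, the STAT motif TTCNNNGAA, the interferon element (GAAA, any 2 bases, GAAA) and the κB motif of NF-κB were searched. The capitals of Ccl8 and Cxcl13 are TATAAA, at -32 and -46 from the start, and those of Cxcl1 are overlapping κB matches from -71. Of the 7 called genes with a window, 0 held the κB, STAT or interferon letters and 2 held TATAAA. Of the 35 other members with a window, 13 held κB, 4 STAT, 2 the interferon letters and 12 TATAAA. Over all 32851 windows the shares were 8.46% for κB, 8.30% for STAT, 3.44% for the interferon letters and 13.6% for TATAAA. The units differ: these shares are by window, over 27025 genes, while the member counts are by gene. The 42 member genes have 48 windows, and a gene was counted if any of its windows matched. These matches describe letters in a short window. No window was available for Cxcl5, so this called gene is not among the 7.

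Of 4 lists of other genes in chemokine biology, 3 held called genes, all of them higher with leptin. Over all tested genes 8.27% were called in either direction and 4.29% higher, and the median log2 fold change was 0.020. Of 27 tested genes that carry chemokine receptor signals, 4 were called: Rac2, which drives the oxidase and movement of white blood cells (1.5 ± 0.19, adjusted p = 4.4e-04), Prkcb, a protein kinase C (1.19 ± 0.16, adjusted p = 8.7e-04), Ncf1, a subunit of the phagocyte oxidase (1.12 ± 0.19, adjusted p = 0.0038), and Arrb1, an arrestin (0.65 ± 0.18, adjusted p = 0.0433). The median of the list was 0.25. Broadly expressed members such as the G protein subunits Gnai2 and Gnb1 were at 0.14 ± 0.12 and -0.12 ± 0.097 and were not called (adjusted p = 0.537 and 0.482).

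Of 10 tested genes of other chemoattractants, 4 were called, with a list median of 0.49. They were Cd74, the invariant chain and a receptor for Mif (2.63 ± 0.11, adjusted p = 3.4e-08), Alox5ap and Alox5 of leukotriene synthesis (1.05 ± 0.15 and 1.00 ± 0.21, adjusted p = 0.0012 and 0.014) and the complement receptor C3ar1 (0.75 ± 0.20, adjusted p = 0.0402). The platelet chemokine Pf4, a CXC ligand named outside the family scheme, was at 0.34 ± 0.13 (adjusted p = 0.14). Among 20 tested cytokine signals that induce chemokines, 4 were called, with a median of 0.22: Nfkbiz, a co-activator of NF-κB targets (1.15 ± 0.15, adjusted p = 5.3e-04), Il1b (1.32 ± 0.20, adjusted p = 0.0018), the NF-κB inhibitor Nfkbia (0.41 ± 0.084, adjusted p = 0.0112) and the transcription factor Irf1 (0.62 ± 0.13, adjusted p = 0.0137). Of 12 tested genes that cleave, carry or display chemokines, limma called 0, and 2 had an unadjusted p below 0.05. Their median was 0.076, and Mmp9, a gelatinase that trims chemokines, was at 0.91 ± 0.27 (adjusted p = 0.0587).

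With the actin ratio of each array as a covariate, 3 member genes were called in place of 8: Ccl8 (2.89, adjusted p = 1.3e-04), Cxcl5 (5.52, adjusted p = 0.00399) and Cx3cr1 (1.82, adjusted p = 0.046). The calls of Cxcr6 (1.26, adjusted p = 0.0854), Ccl6 (0.74, adjusted p = 0.0743), Cxcl13 (0.94, adjusted p = 0.128), Ccl28 (0.51, adjusted p = 0.239) and Cxcl12 (0.30, adjusted p = 0.416) were lost. The estimate of Cxcr6 was not smaller in that fit, while that of Cxcl12 went from 0.60 to 0.30. The ratio itself differed between treatments, and its part in these results was not tested.

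**Figure D5:**
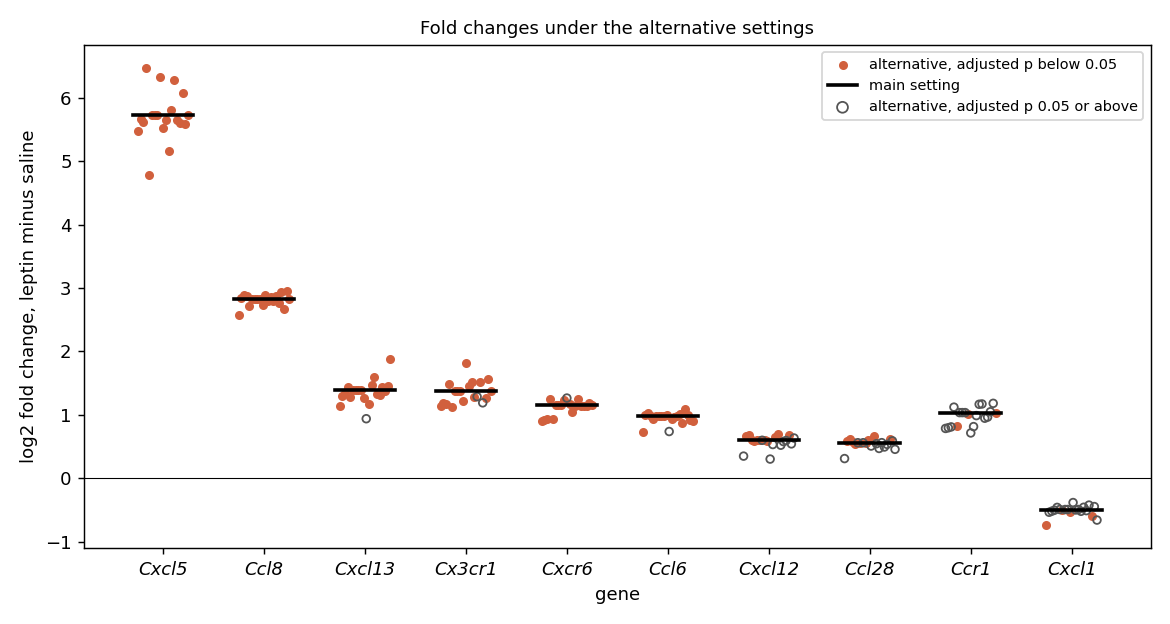
Log2 fold change, leptin minus saline, of the 8 called member genes and of Ccr1 and Cxcl1 in the main setting (bars) and in up to 20 alternative settings (points; filled where adjusted p is below 0.05). Cxcl5 and Ccl8 were called in each setting in which they were tested, while Cxcl12 and Ccl28 kept their sign and lost the call in 9 and 11 settings.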

How the data were processed

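The authors' deposited values are intensities of 8 gallbladder pools, made with MAS5 per the submitters' processing notes; the series' design text names MAS 5.0 or its successor from the same maker without saying which. The scan date of an array and the software version were not given in the sources used here, and no batch was examined. Pools hold different mice, but the number of arrays limits precision. Each array was scaled to the common 2% trimmed mean and taken to log2(signal + 8.2), the 10th percentile of all values, which shrinks the fold change of a dim gene. Left out were 64 control probe sets, and probe sets at or above the median brightness were tested with limma 3.58.1 in R 4.3.3 (lmFit, eBayes with trend), two-sided, adjusted over all tested probe sets, threshold 0.05. SE is the fit's standard error.

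Of all probe sets, 34958 had 1 symbol, 932 several and 9211 none; symbols were updated through Entrez identifiers to GRCm38.p6, of which no coordinates other than those of the promoter windows are given. A gene was read from its brightest probe set with 1 symbol. Left out were 4 probe sets that match several chemokine genes (the Ccl19, Ccl21 and Ccl27 groups). Every member gene is named; a called one has its 8 signals, and each pathway list up to 4 called genes. Where at least 2 of 4 pools of a group lay under background and the other group above, the fold is a lower bound. The pathway and marker lists and the members were chosen with earlier results of these data known. Alternatives covered scaling, pseudocount, filter, variance model, array weights, the actin ratio, the probe set of a gene and leaving out each pool. No sample column was left unused (0).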

Additional observations from a re-analysis of the deposited data

Results flagged for a closer look

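Among the 29 tested member genes in 2 groups of 4 pools each, 4 of 58 groups had a pool far from the others by Dixon's test on log2 values, which chance alone gives in about 1 of 20 groups. Cxcl5 in leptin 7 was at 783, with the other leptin pools at 1894 to 2113. Cx3cl1 in leptin 6 was at 603, with the others at 433 to 455. Saline 4 was apart for Cxcl17, at 277 with the others at 170.6 to 171.6, and for Cxcr3, at 60 with the others at 99.9 to 104.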

How the results depend on the processing

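Over 20 alternatives the count of member genes called higher was 5 to 10 apart from the actin covariate, which gave 3; it was 5 above the 75th percentile of brightness, where fewer members are tested, and 5 to 8 on leaving out a pool, the 5 being without saline 4 and without leptin 6. The count called lower was 1 instead of 0, Cxcl1 each time, with median centring, the 75th-percentile filter and array weights, and 0 to 1 on leaving out a pool. Probe sets called numbered 1561 (798 higher, 763 lower); they were 3992 (406 higher, 3586 lower) with median centring, which moved the median log2 fold change of all tested probe sets by -0.25, 654 (249 higher, 405 lower) with the actin covariate, and 878 to 1436 on leaving out a pool, lowest without saline 2 (878), leptin 6 (892), saline 4 (929) and leptin 8 (994). The split was 462 to 817 above the 75th percentile and 691 to 389 without the mean-variance trend. The 8 called genes kept their direction in every setting in which they were tested. Signs turned only for genes not called. With median centring Ackr1 was at -0.068, Ackr3 -0.23, Ackr4 -0.25, Ccl11 -0.064, Ccl25 -0.14, Ccl4 -0.093, Ccr1l1 -0.052, Cx3cl1 -0.11, Cxcl14 -0.16 and Cxcl16 -0.16. With quantile scaling Ackr3 was at -0.037, Ccl25 -0.13, Ccl4 -0.058, Ccr1l1 -0.048 and Cxcl14 -0.038, and with loess -0.011, -0.13, -0.040, -0.038 and -0.0070. Array weights gave -0.036 for Ackr3 and -0.083 for Ccl25, the larger pseudocount -0.0018 for Ackr4, and the actin covariate -0.14 for Ackr3, -0.47 for Ccl4, -0.22 for Ccl9, -0.029 for Ccr1l1 and -0.12 for Cxcl14. On leaving out a pool Ackr3 ran from -0.081 to 0.17, Ackr4 from -0.40 to 0.30, Ccl25 from -0.20 to 0.41, Ccl27a from -0.39 to 0.20, Ccl4 from -0.041 to 0.40, Ccr6 from -0.048 to 0.52 and Cxcl14 from -0.10 to 0.24. The causes were not tested. No paired analysis was possible because no pool number is shared between treatments. Signals under background limit what can be said of the 26 dim members.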
